A study of Mus musculus with 8 samples.

Results

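The genes described here are the aryl hydrocarbon receptor Ahr, its repressors Ahrr and Tiparp, and 5 genes for enzymes that the receptor is known to control, Cyp1a1, Cyp1b1, Ugt1a6a, Ugt1a7c and Xdh. These 8 genes are a small part of the 55357 in the count table of the series. They were chosen by their role in the pathway, at a time when the So(d18:1) against control differences of this experiment were already known, so that their own differences are given as a description and carry no test. The experiment measured polyadenylated RNA in bone marrow-derived macrophages (BMDM) of wild-type C57BL/6J mice, cells that were grown from marrow in macrophage colony-stimulating factor. In the So(d18:1) group, 4 libraries come from cells given sphingosine, named So(d18:1), at 2 μM for 6 h, and in the control group 4 come from cells given the solvent, methanol, for the same 6 h. The labels name no age, sex or inflammatory stimulus, although the study's text speaks of stimulated cells. The study calls the samples of a group biologically independent, whereas the labels do not say whether they come from separate mice or cultures, and p-values measure the spread between these libraries.

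AHR is a ligand-activated transcription factor that waits in the cytoplasm with the chaperone HSP90 and its co-chaperone p23. Dioxins, plant indoles and tryptophan metabolites bind it, after which it moves to the nucleus, pairs with ARNT, the partner that HIF-1α and HIF-2α also need, and binds a DNA element called XRE whose core is GCGTG. AHRR resembles the receptor, competes for ARNT and the XRE and lacks its activating part, and TIPARP, also called PARP7, attaches ADP-ribose to AHR and limits its activity. Both repressor genes are themselves switched on by AHR and close a feedback loop. CYP1A1 and CYP1B1 oxidise aromatic compounds, UGT1A enzymes attach glucuronic acid to the products, and XDH turns xanthine into uric acid.

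The XRE core is the element through which AHR binds DNA, and the 4 member promoters in which it was found are therefore shown. RefSeq promoter windows (GRCm38.p6) matched 6 of the 8 members, and the 250 bases before the RefSeq start of transcription are considered here. The search for GCGTG covered both strands. The same letters are also one form of the core of the element bound by HIF factors, so a match cannot be assigned to either. The windows of Ahrr (chr13:74292332-74292581, minus strand), Tiparp (chr3:65528197-65528446, plus strand), Cyp1a1 (chr9:57697363-57697612, plus strand) and Cyp1b1 (chr17:79715062-79715311, minus strand) are given 5′ to 3′ along the gene, with each GCGTG, or its reverse complement CACGC, in capitals. The Cyp1a1 window lies before the RefSeq start, which is inside the longer Cyp1a1 gene of the GENCODE annotation. The last bases of the Tiparp window also lie inside its GENCODE gene, which starts at 65528410.
Ahrr: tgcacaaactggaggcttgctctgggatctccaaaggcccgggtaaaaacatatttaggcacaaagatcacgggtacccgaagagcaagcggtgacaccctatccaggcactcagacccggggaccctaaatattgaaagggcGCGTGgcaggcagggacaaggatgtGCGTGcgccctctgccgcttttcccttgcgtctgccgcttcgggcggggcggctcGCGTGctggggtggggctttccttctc
Tiparp: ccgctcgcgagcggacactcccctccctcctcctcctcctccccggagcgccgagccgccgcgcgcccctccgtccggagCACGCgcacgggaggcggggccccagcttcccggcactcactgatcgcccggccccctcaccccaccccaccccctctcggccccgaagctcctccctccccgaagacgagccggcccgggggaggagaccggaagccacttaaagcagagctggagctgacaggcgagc
Cyp1a1: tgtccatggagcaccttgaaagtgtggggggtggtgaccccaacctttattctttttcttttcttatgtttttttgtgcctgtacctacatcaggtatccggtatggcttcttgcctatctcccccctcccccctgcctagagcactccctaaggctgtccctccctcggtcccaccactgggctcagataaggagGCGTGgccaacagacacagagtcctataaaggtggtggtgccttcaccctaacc
Cyp1b1: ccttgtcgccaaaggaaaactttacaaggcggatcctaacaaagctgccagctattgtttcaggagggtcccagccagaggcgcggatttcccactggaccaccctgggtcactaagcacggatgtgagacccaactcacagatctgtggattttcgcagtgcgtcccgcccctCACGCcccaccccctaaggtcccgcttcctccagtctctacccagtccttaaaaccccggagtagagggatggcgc

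The Ahrr window held 3 cores, all on the strand of the gene, and 1 of the 3 was also part of a match to the longer motif TNGCGTG. Tiparp, Cyp1a1 and Cyp1b1 held 1 core each, and Ugt1a6a and Ugt1a7c held none. The Ugt1a7c window (chr1:88094751-88095000) ends before the GENCODE start of the gene, and the bases after it matched no GENCODE transcript, so its RefSeq start differs from the annotation. Among all 32851 promoter windows of this length, 28.2% held at least 1 core, 2.77% held 3 or more and 4.1% held the longer motif. The letters G and C made up 60.4% of the Ahrr window, 75.2% of Tiparp, 53.6% of Cyp1a1 and 58.0% of Cyp1b1. They made up 51.2% of Ugt1a6a and 38.8% of Ugt1a7c, and the shares over all windows were not matched for this. The other core of HIF elements, ACGTG, was in none of the 6 windows and in 16.6% of all windows. These matches describe letters in a short window and say nothing about binding in these cells.

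**Figure D1:**
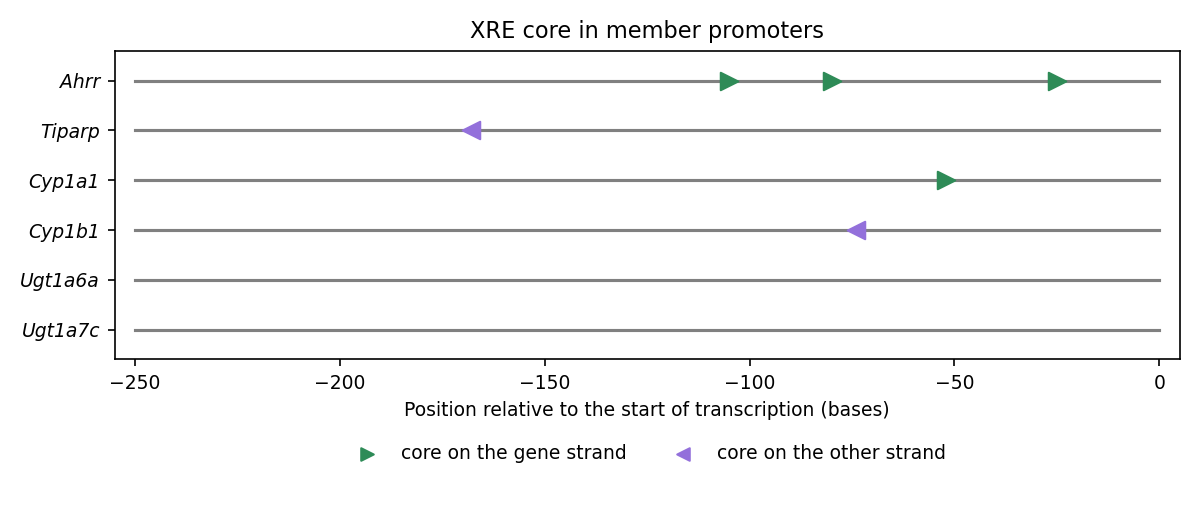
Position of the XRE core in the 250 bases before the RefSeq start of 6 member genes. The x axis gives bases from the start of transcription, each line is a gene, and arrowheads mark a core on the strand of the gene or on the other strand. Ahrr holds 3 cores, whereas Ugt1a6a and Ugt1a7c hold none.

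Total counts lay between 17748397 and 26088609 per library, and 14514 genes had enough counts to be tested with edgeR's quasi-likelihood test. The cells expressed the macrophage genes Adgre1 and Csf1r strongly, at 2213 and 6234 CPM (counts scaled to a common library total) on average in control libraries, and the 7 macrophage markers summed to 30123 to 32413 CPM in control and 26006 to 30868 CPM with So(d18:1), with 1 higher and 2 lower by the test. All 8 neutrophil marker genes examined were measured, and their summed level was 1105 to 1513 CPM in control and 859 to 964 CPM with So(d18:1), with 4 of the 8 lower by the test and none higher. Markers of other cells were scarce. The 4 B cell markers summed to 15.6 to 17.7 CPM in control and 12.9 to 16.5 CPM with So(d18:1). Their log2 fold changes had a median of -0.81, and none was called at the adjusted p, although 3 changed at least 1.5-fold with an unadjusted p under 0.05. The 5 T and NK cell markers summed to 1.59 to 2.91 CPM in control and 1.12 to 1.58 CPM with So(d18:1), and Nkg7, the only one tested, was lower (log2 fold change -0.83 ± 0.25, edgeR, adjusted p = 0.0426). The 5 dendritic cell markers summed to 4.51 to 6.49 CPM in control and 5.63 to 6.84 CPM with So(d18:1), with none called among 3 tested. The part of these cell types in the differences below was not tested, and in RNA of whole cultures fewer cells of a type and less RNA per cell cannot be told apart.

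The receptor itself was somewhat lower with So(d18:1). Ahr (ENSMUSG00000019256, chromosome 12, 35497974 to 35535038, minus strand) was at 17.2, 17.4, 16.2 and 15.1 CPM in control replicates 1 to 4 and at 14.2, 15.1, 12.8 and 12.8 CPM in So(d18:1) replicates 1 to 4. Here and below, errors of log2 fold changes are standard errors (SE). The highest So(d18:1) library, replicate 2, lay just above the lowest control library, replicate 4, so the groups touched. The means were 16.5 ± 1.03 CPM without and 13.7 ± 1.15 CPM with So(d18:1) (SD, n = 4 each), with a log2 fold change of -0.26 ± 0.086. Exons of Gm48236 on the other strand cover 2.06% of the Ahr exons.

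Both repressor genes were higher with So(d18:1). Ahrr (ENSMUSG00000021575, chromosome 13, 74211118 to 74292331, minus strand) was at 35.0, 31.7, 34.9 and 33.1 CPM in the control libraries and at 93.6, 88.9, 107.5 and 105.9 CPM with So(d18:1). The lowest So(d18:1) library was thus far above the highest control library. The means were 33.7 ± 1.57 and 99.0 ± 9.17 CPM (SD, n = 4 each), a ratio of 2.94 and a log2 fold change of 1.56 ± 0.063, the largest among the 7 members that could be fitted. Its exons overlap those of no other gene.

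Tiparp (ENSMUSG00000034640, chromosome 3, 65528410 to 65555518, plus strand) was at 42.7, 46.7, 44.7 and 45.9 CPM in control and at 74.1, 69.0, 81.2 and 74.5 CPM with So(d18:1). The groups lay far apart compared with their spread, with means of 45.0 ± 1.74 and 74.7 ± 5.00 CPM (SD, n = 4 each). This was a log2 fold change of 0.73 ± 0.055. Exons of 4931440P22Rik on the other strand cover 5.12% of the Tiparp exons, and the strand setting of the counting is not given in the sources used here.

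The classical AHR target Cyp1a1 was at the edge of detection. Not a single read was counted for it (ENSMUSG00000032315, chromosome 9, 57687928 to 57703824, plus strand) in the 4 control libraries, whereas So(d18:1) replicates 1 to 4 had 0, 4, 1 and 5 reads. Over the 84877455 counts of the So(d18:1) group these 10 reads correspond to 0.118 CPM. A floor of 3 counts over the whole control group corresponds to 0.0319 CPM, and the pooled level with So(d18:1) was 3.7-fold this floor. The ratio rests on reads from 3 of the 4 libraries. It leaves out the counting error of the 10 reads and the spread between libraries, so it is not a lower limit. The gene did not reach the minimum for the test.

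Cyp1b1 (ENSMUSG00000024087, chromosome 17, 79701537 to 79715061, minus strand), the other cytochrome among the members, was scarce and its groups overlapped. Its counts were 33 to 50 reads in control and 28 to 45 reads in treated libraries, or 1.59, 1.99, 2.07 and 1.98 CPM in control and 2.52, 1.27, 2.08 and 1.59 CPM with So(d18:1). Both the highest and the lowest of the 8 values were So(d18:1) libraries. The log2 fold change was -0.056 with a standard error of 0.22, which at this depth leaves room for a sizeable change in either direction. Leaving out one library moved it between -0.22 without So(d18:1) replicate 1 and 0.092 without So(d18:1) replicate 2.

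Both UGT1A members were higher with So(d18:1). Ugt1a7c (ENSMUSG00000090124, chromosome 1, 88095062 to 88220002, plus strand) was at 73.5, 71.6, 66.9 and 69.9 CPM in control and at 119.9, 120.1, 113.2 and 119.2 CPM with So(d18:1). The means were 70.5 ± 2.79 and 118.1 ± 3.30 CPM (SD, n = 4 each), with a log2 fold change of 0.74 ± 0.045. Ugt1a6a (ENSMUSG00000054545, chromosome 1, 88134809 to 88218997, plus strand) was at 5.34, 6.21, 4.47 and 4.99 CPM in control and at 10.5, 8.05, 10.8 and 9.12 CPM with So(d18:1). Again no So(d18:1) library fell into the control range, and the log2 fold change was 0.86 ± 0.13. The genes of this cluster share their last exons: 2170 exonic bases are common to both members, 50.3% of Ugt1a6a and 51.4% of Ugt1a7c. How reads on shared exons were counted is not given in the sources used here, so the split of counts between UGT1A genes is uncertain. The other 7 UGT1A genes had at most 15 reads in any library, and 3 of them had none. One of these is Ugt1a8, of whose exonic bases 59.18% lie in exons of other genes. Reads on shared exons were therefore not counted for every gene that holds them.

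Xdh (ENSMUSG00000024066, chromosome 17, 73883895 to 73950196, minus strand) was the most abundant member and showed the smallest difference. Its level was 443.2, 459.2, 436.1 and 407.8 CPM in control and 451.1, 438.9, 458.3 and 397.2 CPM with So(d18:1). The ranges lay on top of each other, with a log2 fold change of -0.0010 ± 0.049.

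**Figure D2:**
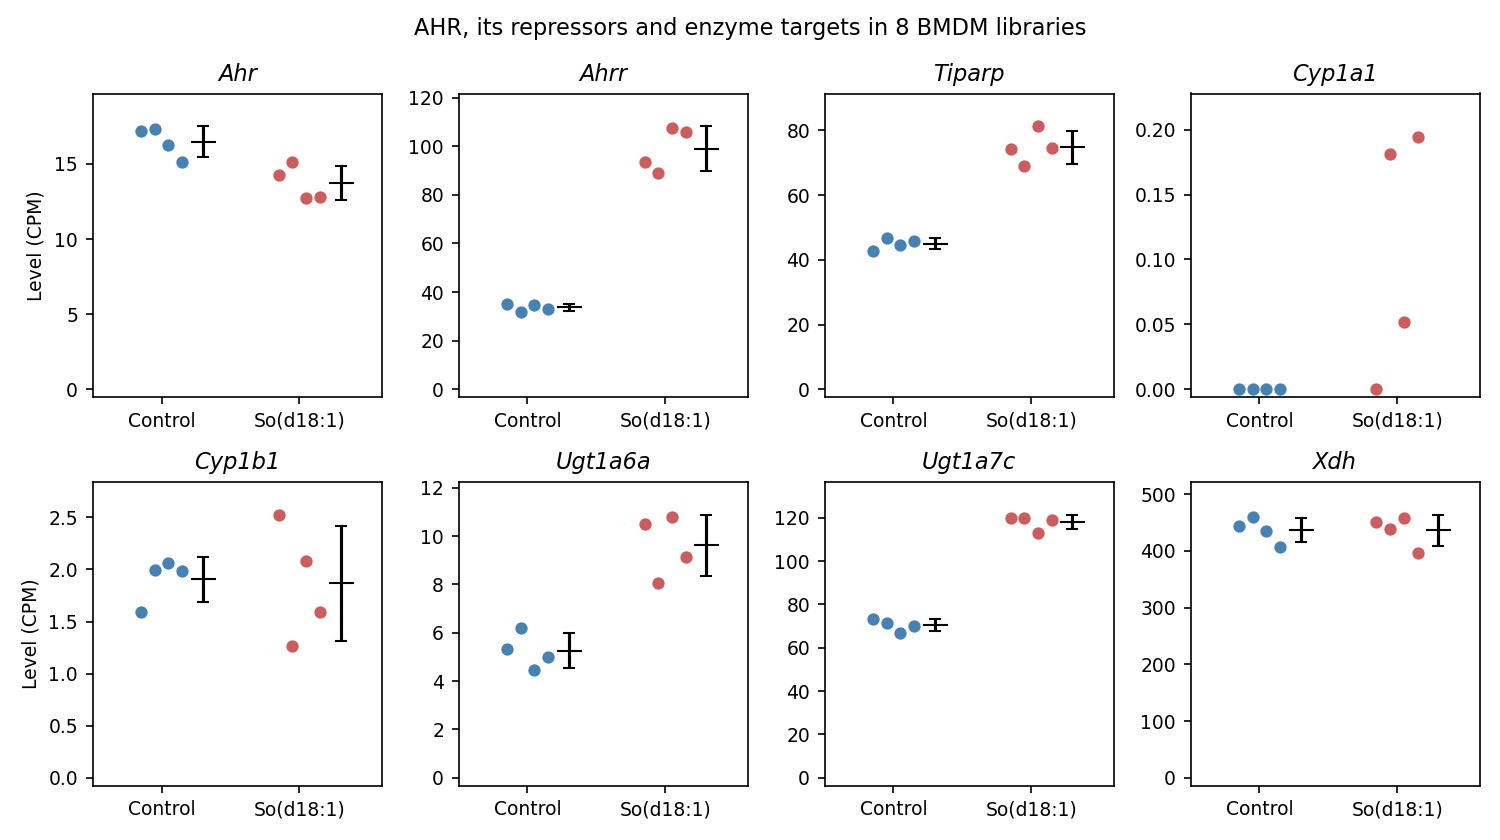
Level in CPM of the 8 members in each library. Each panel is a gene with its own axis from 0, points are the 4 libraries of a group in replicate order, and the horizontal mark with bars is the mean ± SD of the 4 libraries (left out for Cyp1a1, which rests on 10 reads in all). Ahrr, Tiparp, Ugt1a6a and Ugt1a7c are higher in every So(d18:1) library than in every control library, Ahr is lower on average with groups that touch, and Cyp1b1 and Xdh overlap.

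Of the 8 members, 7 had enough counts for the fit. In it 4 of them (Ahrr, Tiparp, Ugt1a6a and Ugt1a7c) were higher at an adjusted p under 0.05 and none lower. The same 4 had groups that did not overlap and passed the study's own threshold, an unadjusted p under 0.05 with a fold change of at least 1.5. Among all tested genes 8.94% were called at the adjusted p (3.87% higher and 5.07% lower), 3.89% passed the study's threshold and 15.0% had groups that did not overlap. Since the members were chosen with these differences known, their calls are a description, and nothing is read from their share or their median. The median log2 fold change was 0.73 over the 7 fitted members and 0.0036 over all tested genes.

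Scaled to the length of their exons, the members spanned a wide range of levels. In control libraries the order, in mean CPM per kilobase, was Xdh at 47.6, Ugt1a7c at 16.7, Tiparp at 10.3, Ahrr at 3.57, Ahr at 2.67, Ugt1a6a at 1.22 and Cyp1b1 at 0.326, and no neighbours in this order overlapped between libraries. With So(d18:1) the order of the first 4 was the same, at 47.6, 28.0, 17.2 and 10.5 CPM per kilobase, with no overlap between neighbours. Ahr and Ugt1a6a, both at 2.23 CPM per kilobase on average, could then no longer be ordered, since their libraries overlapped at 2.07 to 2.45 and 1.87 to 2.50. The scaling for the UGT1A genes counts shared exons in full and is uncertain for the reason given above. Only 1915 of the 4219 exonic bases of Ugt1a7c and 2142 of the 4312 of Ugt1a6a lie outside exons of other genes. If reads on shared exons were left out, the levels of these genes are too low. Their places in both orders, and the lack of overlap with their neighbours, therefore hold for this scaling alone.

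**Figure D3:**
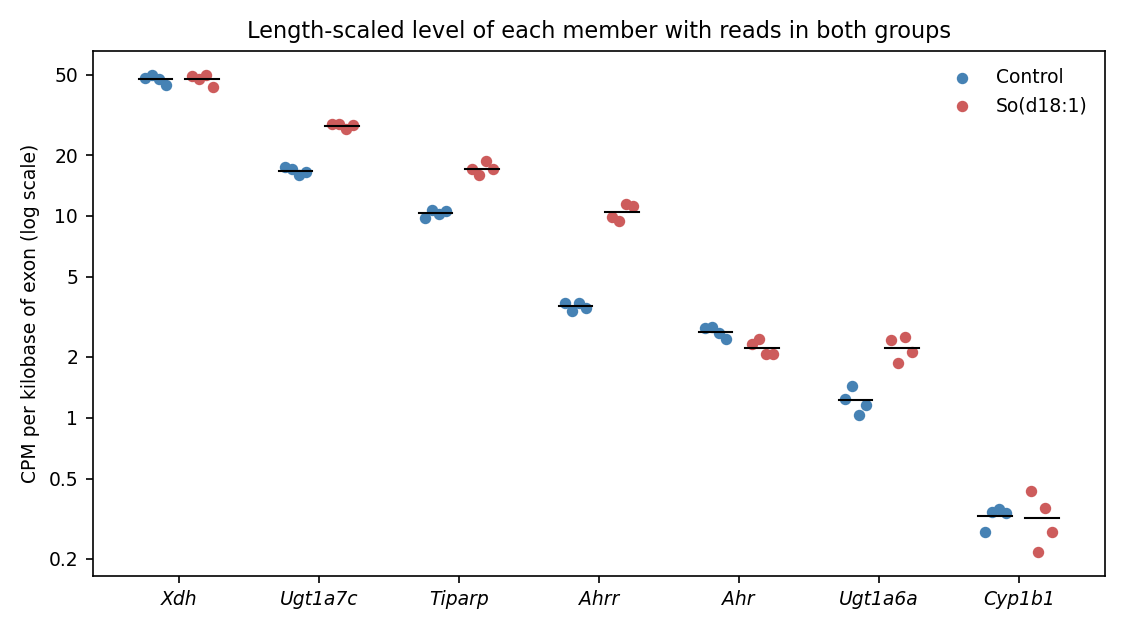
CPM per kilobase of exon, on a log axis, for the 7 members with reads in both groups, ordered by the control mean. Points are libraries and black lines group means. Ahrr moves away from Ahr with So(d18:1). On this scaling, which counts shared UGT1A exons in full, Ugt1a6a reaches the level of Ahr.

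Within a library, the balance between repressor and receptor transcripts does not depend on the library's total. The length-scaled ratio of Ahrr to Ahr was 1.33, 1.19, 1.40 and 1.43 in control replicates 1 to 4 and 4.29, 3.84, 5.50 and 5.40 in So(d18:1) replicates 1 to 4. On average it went from 1.34 ± 0.106 to 4.76 ± 0.822 (SD, n = 4 each). The ratio of Tiparp to Ahr went from 3.88 ± 0.322 to 7.76 ± 1.10, and that of Ahrr to Tiparp from 0.346 ± 0.0288 to 0.611 ± 0.0322 (SD, n = 4 each). In all 3 ratios the groups were apart, and Ahrr gained on its fellow repressor as well as on the receptor. Among the So(d18:1) libraries, replicates 3 and 4 had the highest Ahrr and the lowest Ahr levels. After the group means were taken out, the log2 CPM of Ahr and Ahrr had a Pearson correlation of -0.72 over the 8 libraries. That of Ahr and Tiparp was -0.645 and that of Ahrr and Tiparp 0.45. These are descriptions over few libraries.

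**Figure D4:**
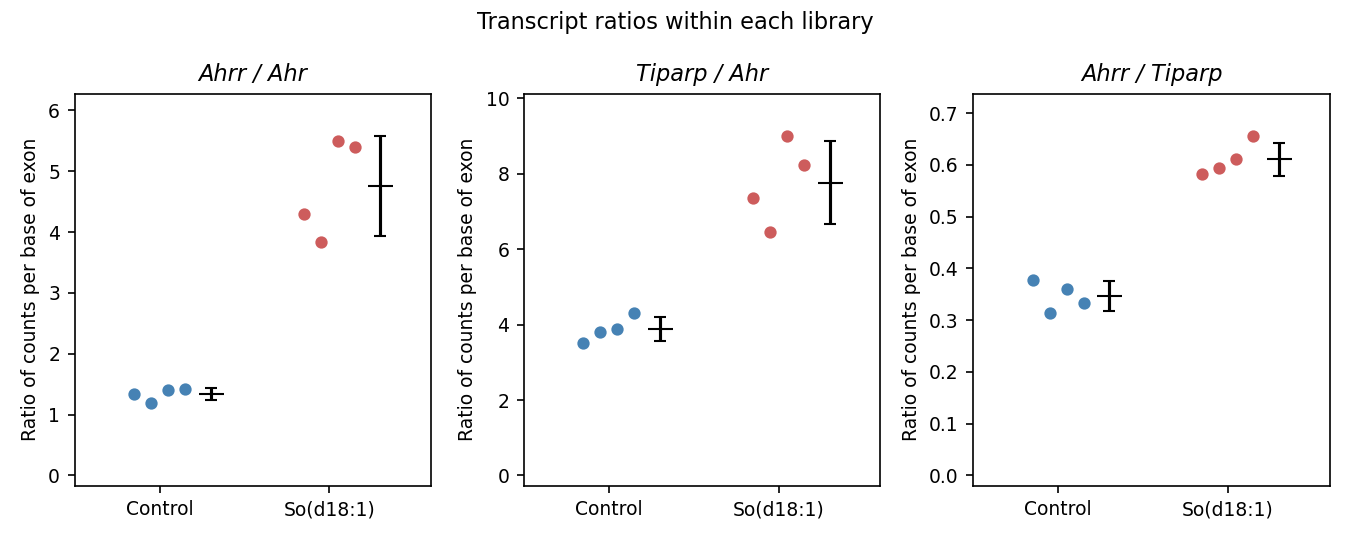
Ratio of read counts per base of exon between the receptor and its repressors in each library, for Ahrr over Ahr, Tiparp over Ahr and Ahrr over Tiparp. Points are the 4 libraries of a group in replicate order and bars the mean ± SD. In each panel all So(d18:1) libraries lie above all control libraries.

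The pathway around the members was followed in 6 lists written by role. Of their 67 genes, 46 were tested, and 7 had an adjusted p under 0.05 (edgeR's quasi-likelihood test), 4 higher and 3 lower with So(d18:1). This is 15.2% of the tested genes of the lists, beside the 8.94% given above for all genes, and their median log2 fold change was -0.0021. Most of the pathway thus did not pass the test.

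Among the 13 genes of the receptor complex and its cofactors, 12 were tested. The dimer partner Arnt was at 116.9 ± 3.26 CPM in control and 111.8 ± 4.16 CPM with So(d18:1) (SD, n = 4 each), with a log2 fold change of -0.064 (edgeR, adjusted p = 0.417). The HSP90 genes were chosen after their values were seen. Hsp90ab1 was at 749 to 815 CPM in control and 824 to 917 CPM with So(d18:1). Its log2 fold change of 0.14 ± 0.046 missed the threshold (edgeR, adjusted p = 0.068). It passed without the low-count filter, with the replicate number as a block, by DESeq2's Wald test and without So(d18:1) replicate 3. Hsp90aa1 had a log2 fold change of 0.014 ± 0.060.

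Of 13 further AHR targets, 7 were tested and Nqo1 passed. It encodes a quinone reductase that both AHR and the oxidative stress factor NRF2 control. Nqo1 had 30, 58, 53 and 58 reads in control and 80, 110, 98 and 156 reads in So(d18:1) libraries, or 1.44, 2.31, 2.23 and 2.39 against 4.49, 4.98, 5.10 and 6.05 CPM. The groups were well separated, and Nqo1 rose with a log2 fold change of 1.29 ± 0.17 (edgeR, adjusted p = 3.0e-05). The other 6 tested targets lay between -0.12 and 0.085 on the log2 scale and did not pass. Aldh3a1, an aldehyde dehydrogenase chosen after its values were seen, resembled Cyp1a1, with no read in control and 0, 2, 1 and 4 reads in So(d18:1) replicates 1 to 4, so that most of its 7 reads came from replicate 4. Cyp2s1, a cytochrome also chosen after its values were seen, went the other way. It had 3 to 6 reads in control libraries and 0 to 2 with So(d18:1), too few for the test. Cyp1a2 had no read in any library.

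Several breakdown products of tryptophan are AHR ligands. Of 11 genes for enzymes of this breakdown, 5 were tested and none passed, and their median log2 fold change was -0.076. Of the entry enzymes, all chosen after their values were seen, Ido1 and Ido2 had at most 1 read in any library. Tdo2 had 8 to 20 reads in control and 3 to 19 reads in So(d18:1) libraries and was not tested.

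Tiparp belongs to the PARP family, of which 12 other genes were listed. All 12 of the list were tested and 2 rose. The median log2 fold change of the 12 was 0.12. Parp8 was at 70.3 to 88.1 CPM in control and 91.8 to 96.0 CPM with So(d18:1), a log2 fold change of 0.25 ± 0.057 (edgeR, adjusted p = 0.00896). Parp10, an enzyme that attaches single ADP-ribose units, was at 52.3 to 56.2 CPM in control and 58.2 to 71.0 CPM with So(d18:1). Its log2 fold change was 0.21 ± 0.058 (edgeR, adjusted p = 0.0239). Parp10 lost its call without control replicate 2 (adjusted p = 0.0509) or 4 (adjusted p = 0.0554) and without So(d18:1) replicate 1 (adjusted p = 0.0586) or 3 (edgeR, adjusted p = 0.0868).

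Around Xdh, 10 of 11 genes of purine breakdown and salvage were tested and 3 fell. Gda, which deaminates guanine to xanthine, the substrate of XDH, fell from 78.8 ± 4.29 to 63.4 ± 1.61 CPM (SD, n = 4 each). This was a log2 fold change of -0.31 ± 0.049 (edgeR, adjusted p = 0.00027), and the highest So(d18:1) library, at 65.8 CPM, lay below the lowest control library, at 75.5 CPM. Ampd3, an AMP deaminase, fell from 72.0 ± 2.76 to 59.7 ± 2.79 CPM (SD, n = 4 each) with a log2 fold change of -0.27 (edgeR, adjusted p = 0.00133), although 8.42% of its exons overlap other genes. Hprt, which returns hypoxanthine and guanine to nucleotides, fell from 127.3 ± 2.99 to 112.6 ± 4.25 CPM (SD, n = 4 each). Its log2 fold change was -0.18 (edgeR, adjusted p = 0.0138), and it no longer passed once So(d18:1) replicate 1 was left out (edgeR, adjusted p = 0.0538). Adk, an adenosine kinase chosen after its values were seen, lay the other way, at 11.1 to 15.7 CPM in control and 16.8 to 20.9 CPM with So(d18:1). Its groups did not overlap, but its log2 fold change of 0.33 ± 0.11 missed the threshold (edgeR, adjusted p = 0.0578). It passed without the filter on low counts, with the replicate number as a block, by the Wald test of DESeq2 and without control replicate 2. The 7 other UGT1A genes, the last list, had too few reads to be tested.

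**Figure D5:**
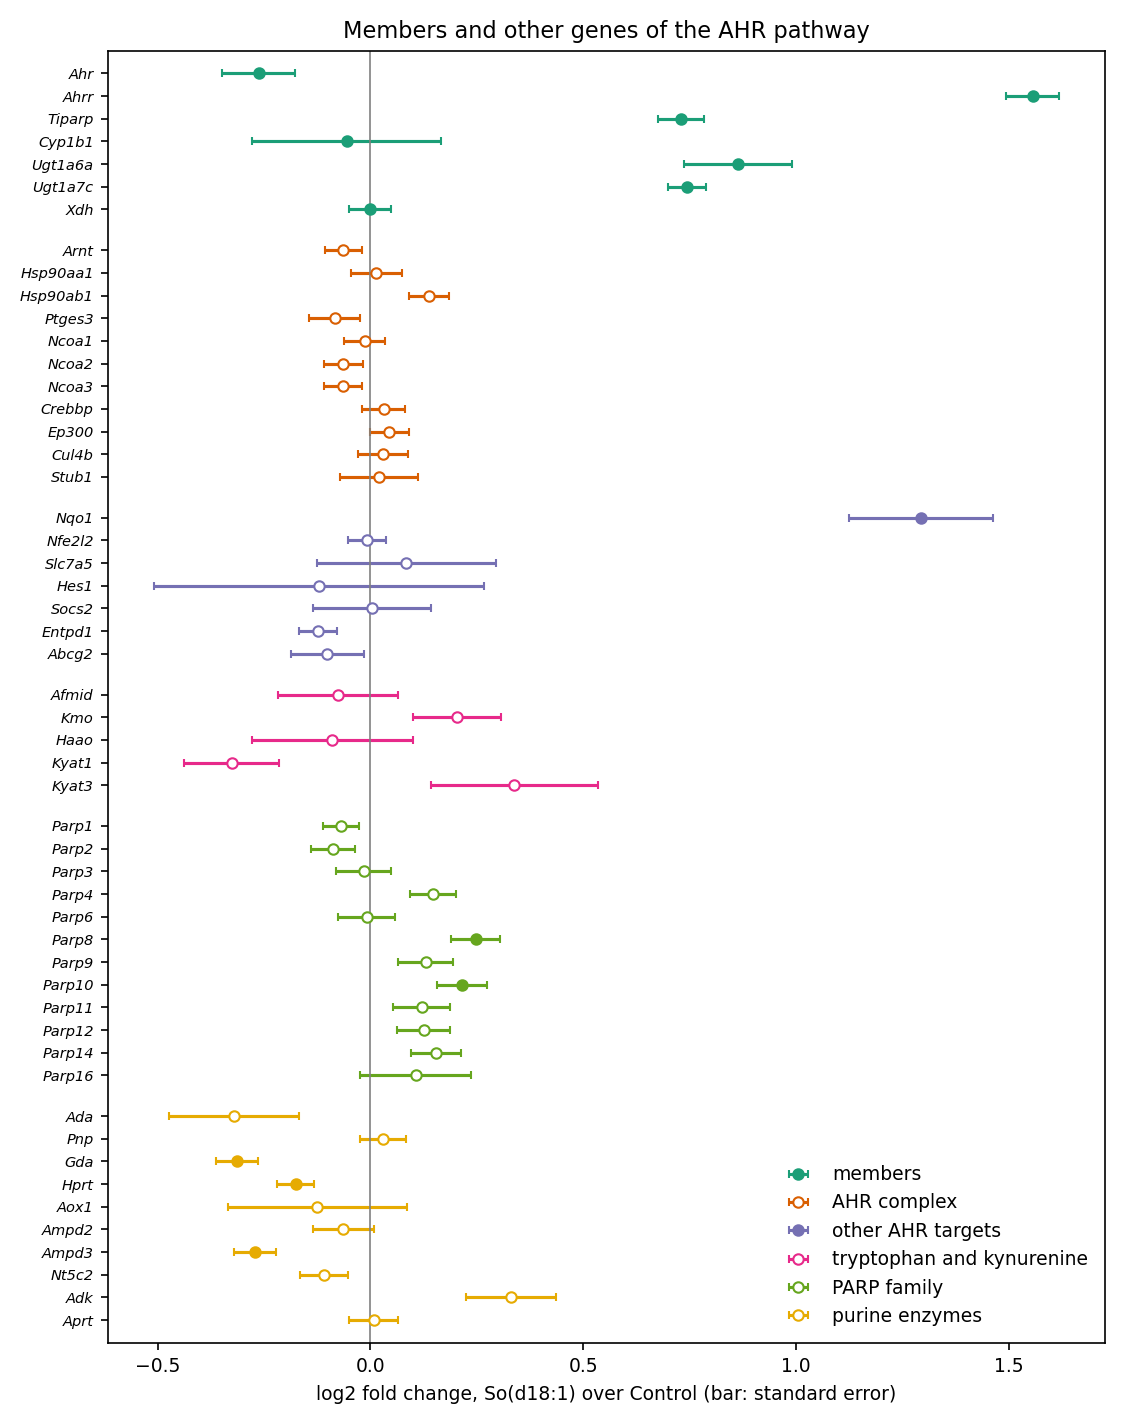
Log2 fold change, So(d18:1) over control, with its standard error, for the 7 fitted members and the tested genes of the other lists that are reported here. Colours mark the lists, filled points in the other lists mark an adjusted p under 0.05, and members are filled whatever their value since they carry no test. Nqo1 at 1.29 is the only gene of the other lists in the range of the members that are higher.

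The genes whose levels followed the receptor and its repressors most closely were sought among 11551 other genes with a mean log2 CPM of at least 1, by Pearson's correlation of log2 CPM over the 8 libraries. For Ahrr these were Cd81 (r = 0.996), a tetraspanin that went from 62.9 ± 1.93 to 82.9 ± 2.29 CPM, Acpp (r = 0.996), an acid phosphatase that went from 12.5 ± 1.25 to 48.6 ± 4.40 CPM, and Cytip (r = 0.995), a regulator of integrin binding that went from 43.3 ± 2.51 to 82.0 ± 5.46 CPM (SD, n = 4 in each group). For Tiparp they were Exoc3 (r = 0.993), Csf2rb2 (r = 0.988), a receptor subunit for interleukin signals with a log2 fold change of 0.36 ± 0.042, and Tnfaip2 (r = 0.988) with 0.33 ± 0.040. For Ahr they were Scamp5 (r = 0.984), the pseudogene Nxpe1-ps (r = 0.965) and Nlrc3 (r = 0.958), with log2 fold changes of -0.16 ± 0.048, -0.36 ± 0.072 and -0.37 ± 0.083. All these correlations span the step between the groups, and 205 genes had a correlation over 0.9 with Ahrr, 184 with Tiparp and 39 with Ahr. Of the 50-base stretches in Csf2rb2 transcripts, 18.94% also occur in other genes, with Csf2rb sharing the most.

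Exoc3, a subunit of the exocyst that tethers secretory vesicles, is also the neighbour of Ahrr. It lies on the same strand of chromosome 13, from 74169488 to 74208732, where it follows the end of Ahrr after 2385 bases with no gene between them. Its control level of 131.1 ± 2.79 CPM compares with 156.1 ± 1.61 CPM under So(d18:1) (SD, n = 4 each), with a log2 fold change of 0.25 ± 0.040 beside the 1.56 of Ahrr. The exons of these genes do not overlap in the annotation.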

How the data were processed

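RNA from 4 control and 4 So(d18:1) BMDM libraries was measured. Per the submitters' notes, the authors used Trim Galore 0.6.7 for trimming, HISAT2 2.2.1 for alignment (build mm10) and featureCounts 2.0.1 for counting, and the deposited values are whole-number counts per Ensembl gene that were not normalized. The deposited table also gives gene lengths in bases, used for length scaling, which equal the exon lengths of GENCODE M21 (GRCm38) for all 8 members. Symbols were assigned to 52081 of 55357 identifiers.

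Counts were filtered by filterByExpr, scaled by TMM and tested with edgeR 4.0.16 (quasi-likelihood test, robust, Benjamini-Hochberg adjustment) in R 4.3.3, with limma 3.58.1. Standard errors of log2 fold changes were obtained from the F statistic (the size of the change over the root of F), and log2 CPM used a prior count of 2. Total counts of 17748397 to 26088609 set the precision of scarce genes, and the floor for Cyp1a1 covers counting error in the control group only. Replicates within a group differed by more than counting noise (chi-square per gene 2.75 to 12.1).

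The members and lists were chosen with earlier results of these data known. The text names the members, Arnt, Nqo1, the genes of the lists with an adjusted p under 0.05, and the 3 genes most correlated with Ahr, Ahrr and Tiparp; others are said to be chosen after their values were seen. One gene that the rule names is counted in its list but not reported here. Promoters are RefSeq windows of GRCm38.p6, overlaps and positions are from GENCODE M21, and figures were drawn with matplotlib 3.10.9. Alternatives were DESeq2's size factors, library size alone, a block for the replicate number, the low-count filter left off or raised to at least 10 counts per library, limma-voom, the DESeq2 1.42.0 Wald test and each library left out in turn. The fit was tested on simulated counts with known changes.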

Additional observations from a re-analysis of the deposited data

Results flagged for a closer look

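In 3 of 54 groups of 4 libraries, a single library lay far from the rest, judged by its distance from the next library as a part of the spread of all 4 (Dixon's ratio). Chance alone gives about 2.7 such cases. Control replicate 1 was low for Cyp1b1 (ratio 0.84, log2 CPM 0.75 against 1.05 to 1.11) and for Nqo1 (ratio 0.863, log2 CPM 0.62 against 1.22 to 1.31). So(d18:1) replicate 3 was low for Ugt1a7c (ratio 0.872, log2 CPM 6.82 against 6.90 to 6.91). Nqo1 had a log2 fold change of 1.16 when control replicate 1 was left out, the lowest among the 8 such fits, in which the edgeR adjusted p was at most 0.00029. The cause was not tested.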

How the results depend on the processing

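The log2 fold changes of the 7 fitted members moved by less than the spread between libraries under all 15 alternatives run. With one library left out, Ahrr ranged from 1.52 to 1.61, Tiparp from 0.69 to 0.77, Ugt1a7c from 0.72 to 0.77, Ugt1a6a from 0.79 to 0.96, Ahr from -0.31 to -0.23, Cyp1b1 from -0.22 to 0.092 and Xdh from -0.031 to 0.042, so that the last 2 have no stable sign. Over all genes, 815 (without So(d18:1) replicate 2) to 1370 (without control replicate 2) were called in these fits, from 1298 with all libraries, and 5 to 8 genes of the pathway lists, from 7. The same 4 members were called in each, which is again a description, since they were chosen with these differences known. Libraries of both groups carry numbers 1 to 4, but the deviations of same-numbered libraries correlated at only -0.0035 to 0.10, and 3 of 8 libraries correlated best with their own number, so the libraries were not treated as pairs. With the replicate number as a block, 1784 genes, 10 genes of the lists and 5 members were called, the added member being Ahr. This is more than the 1298 genes without the block, so whether same-numbered libraries belong together is not settled. The 7 list genes called were also called under every alternative that kept all libraries, and 3 more passed with the block and without the filter on low counts. Among the single genes named, Scamp5 lost its call under 8 alternatives, Parp10 under 4 and Hprt under 1. Cyp1a1 did not reach the filter of the main fit, so no fold change is given for it. With the low-count filter left off, 8 members entered the fit. The 4 called were again Ahrr, Tiparp, Ugt1a6a and Ugt1a7c, and Cyp1a1 was not called. The depth here limits statements on Cyp1a1, on Aldh3a1, on Cyp2s1 and on Cyp1b1.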
